A study of Homo sapiens with 19 samples.

Results

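Retained-intron transcripts are annotated alternative transcripts of a gene that keep sequence which the main transcript splices out. In the rRNA-depleted RNA-seq table, 256980 transcripts were listed, of which 31445 carry the GENCODE type retained_intron. The transcripts described here are the 18215 of these (57.9%) with a value above 1 in at least 1 of the columns, and each was set beside the canonical transcript of its gene. They belonged to 5830 genes, and 18006 of them were transcripts of protein-coding genes. Another 5010 were listed at 0 in both columns and 8220 stayed at or below 1. The transcript nearest to the threshold on the inside was one of MASP2, at 0 untreated and 1.00 under arsenite, and the nearest outside was one of SLC9A5, at 0.980 and 0.99970.

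The RNA came from SH-SY5Y, an established human neuroblastoma cell line. One culture condition was untreated, and the other received 500 μM sodium arsenite (AS) for 1 h, a dose that induces oxidative stress and stress granules (SGs), cytoplasmic assemblies of RNA and protein. Total RNA was depleted of rRNA and sequenced in paired ends, with 1 library per condition. With 1 library each, no difference below has a replicate check or a test, and every comparison is between these libraries. All values come from the same normalisation: the columns are headed TPM, but they behave as FPKM, fragments scaled by transcript length and library size, with 13291959 fragments behind the untreated column and 11281587 behind the AS column. Among sympathoadrenal markers, the canonical transcripts of HAND2 (149 untreated, 148 under AS), GATA2 (152 and 136) and DBH (161 and 179) were high, while TH, which encodes tyrosine hydroxylase, was at 0.041 and 0.049. All 13 sympathoadrenal markers were listed above 0. Of 5 mesenchymal markers, TWIST1 was at 54.5 and 50.8 and the others at or below 1.00, and the 6 immune and epithelial markers stayed at or below 0.654, with CD3E and KRT18 at 0 in both.

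Splicing removes introns at a 5′ splice site that usually begins with GT and a 3′ splice site that usually ends with AG. Transcripts that keep an intron are often held in the nucleus, and some of these introns, called detained introns, are spliced later. Those that reach the cytoplasm often carry an early stop codon and can be degraded by nonsense-mediated decay. Introns of genes for splicing factors and their kinases are well known for this behaviour, and heat and other stress can change it.

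The introns in these sequences carry the comparison that bears most directly on retention. For each of them, a retained-intron transcript was set beside a partner transcript of the same gene that lacks the intron. The 2 transcripts differ by that intron and also, by 2 to 34 nt, at their outer ends. They were chosen to show introns with larger or smaller fragment numbers under AS, except that HMGN1 was chosen for its many fragments. DDX5 was also among the introns with the most fragments. Each line gives a 5′ splice site with 10 exon and 20 intron bases, or a 3′ splice site with 20 intron and 10 exon bases. Capitals mark the first and last bases of the intron, coordinates are of the intron on GRCh38, and bases are read 5′ to 3′ on the gene's strand. The introns are DDX5 chr17:64500774-64501056 (minus strand), C1orf174 chr1:3891058-3892882 (minus), UBE2T chr1:202335059-202335645 (minus), DNAJB11 chr3:186577801-186581370 (plus), MT2A chr16:56608684-56608991 (plus) and HMGN1 chr21:39345275-39348291 (minus).
DDX5 5′ site: ttgatgatctGTaagggaacttgctgattt
DDX5 3′ site: cacactgcaacaccttacAGatgtggaaga
C1orf174 5′ site: agcatgtctgGTgagccctgttaccgtgga
C1orf174 3′ site: tacattttttttcttgacAGacttcctcat
UBE2T 5′ site: ctgcgagctcGTaggtatcaaatcatgtat
UBE2T 3′ site: tctttcttttttcttttaAGaaatattagg
DNAJB11 5′ site: ttttgtggaaGTaagttcaaacaatatagc
DNAJB11 3′ site: gttgtttatgcacttcctAGgtagttagaa
MT2A 5′ site: tgcgccgccgGTaagaggctggggatgccc
MT2A 3′ site: tctgtcttttctccttgcAGgtgactcctg
HMGN1 5′ site: agcagcgaagGTaagcctcgaaacgcgcat
HMGN1 3′ site: atattcttattctatcatAGgataaatctt

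The values of a retained-intron transcript include fragments of the exons it shares with spliced transcripts. In a check of 4324 pairs of transcripts in which the exons of one lie inside the exons of the other, the larger transcript had at least as many fragments in all 4324, among them 482 whose larger transcript is a retained intron. The values thus behave as counts of fragments over the exons of a transcript, whether or not they touch the intron. They can include fragments spliced across the intron, which come from RNA that lacks it.

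The levels of the retained-intron transcripts were low. The median value was 3.21 untreated (quartiles 1.68 and 6.73) and 3.71 under AS (1.88 and 7.77), and the median transcript had 53 and 51 fragments. Above 1 in both columns were 15804, above 1 only in the untreated column 940 and above 1 only in the AS column 1471. In genes that overlap an exon of another gene, on either strand, were 11297 of the retained-intron transcripts, and 220 had a small RNA gene inside an exon. As the strand of counting is not known, reads of overlapping genes cannot be told apart. The highest values belonged to abundant housekeeping mRNAs. The retained-intron transcript of ACTB, which encodes beta-actin, was at 847 untreated and 967 under AS, and its canonical transcript was at 1047 and 1196. Those of EEF1A1 (717 and 830), which encodes a translation elongation factor, and GAPDH (621 and 760), which encodes a glycolytic enzyme, came next. For RPS2, a gene of a small-subunit ribosomal protein, the values were 567 and 631. All 4 of these were higher under AS as deposited, by ratios of 1.11 to 1.22, but those of all except GAPDH were below the median ratio of the table given next. All of these genes have processed pseudogenes or near copies with which they can exchange reads.

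Under AS most transcripts of the table had higher values, which is a property of the whole table: over the 88770 transcripts above 1 in both columns the median ratio was 1.19, or 0.25 on the log2 scale. Changes below are to be read against that shift. As the values are scaled to library size, they do not measure cell number or RNA per cell. Fragments summed over the transcripts with a matching version were nearly equal in both columns. The library total used for scaling was smaller under AS, with 11281587 fragments beside 13291959 untreated, and a smaller total gives higher values. How much of the shift comes from this scaling was not tested. The median log2 ratio (of values plus 0.1) over the retained-intron transcripts was 0.20 (95% rank interval 0.19 to 0.21), beside 0.26 over all 100705 transcripts above 1 in at least 1 column. It was 0.28 in protein-coding transcripts, 0.30 in those of nonsense-mediated decay, 0.26 in transcripts with no defined coding sequence and 0.25 in lncRNAs. Retained introns thus had the lowest median of these 5 transcript types. Processed pseudogenes, a smaller type with 656 transcripts, had a lower median of 0.054. Of the retained-intron transcripts, 43.7% lay above the median shift of the table, compared with 51.9% of all transcripts. The rank intervals treat transcripts as independent, although transcripts of a gene share fragments.

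**Figure D1:**
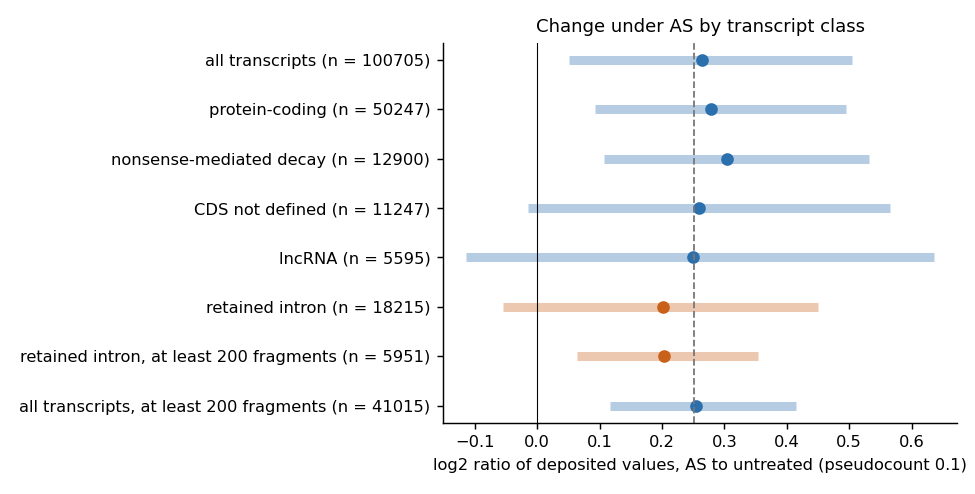
Median (dot) and quartiles (bar) of the log2 ratio of AS to untreated values for each transcript class, on an axis in log2 units, with the dashed line at the median shift of the table, 0.25. The retained-intron median of 0.20 lies below the line, whereas the protein-coding median of 0.28 and the nonsense-mediated-decay median of 0.30 lie above it.

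A ratio above 2 was found for 1125 retained-intron transcripts (6.18%), and 6.84% of all transcripts had such a ratio. A ratio below 0.5 was found for 533 (2.93%), and for 2.01% of all transcripts. The share of higher values was close to the background, and the share of lower values was above it, but it was as high or higher in other transcript types: below 0.5 were 3.07% of transcripts without a defined coding sequence, 5.49% of lncRNAs and 3.09% of canonical transcripts, compared with 0.951% of protein-coding and 1.00% of nonsense-mediated-decay transcripts. Among the transcripts above 1 in both columns, 380 (2.40%) were higher and 115 (0.728%) lower, beside 3.06% and 0.452% of all such transcripts. The calls sat at low values: of the 4267 retained-intron transcripts whose higher value was between 1 and 2, 555 (13.01%) were higher and 322 (7.55%) lower, and of the 443 above 50, 2 were higher and 2 lower. Over all transcripts the shares were 15.4% and 6.29% between 1 and 2, and 0.425% and 0.177% above 50. With at least 200 fragments over both columns, 42 of 5951 (0.706%) were higher and 14 (0.235%) lower, with a median log2 ratio again of 0.20. Over all transcripts of that depth, 1.09% were higher and 0.166% lower, with a median of 0.25. After the AS column was rescaled to a median ratio of 1, the calls became 538 higher and 931 lower, so that 36.6% of the calls were higher instead of 67.9%, and for all transcripts 49.0% instead of 77.3%.

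Compared with their own canonical transcripts, retained-intron transcripts had slightly smaller ratios. Over the 17768 with a canonical transcript in the comparison, the median difference of log2 ratios (retained intron minus canonical) was -0.047 (95% rank interval -0.050 to -0.043), and 10746 (60.5%) were below 0. Over all non-canonical transcripts the median was -0.0054, and 53% were below 0. Transcripts of the nonsense-mediated decay type had a median of 0.00052 and those without a defined coding sequence of -0.017. A difference below -1 was found for 708 retained-intron transcripts (3.98%), beside 2.16% of all non-canonical transcripts, and a difference above 1 for 317 (1.78%), beside 1.77%. Transcripts without a defined coding sequence had 3.71% below -1 and 3.31% above 1, so the share below -1 was not particular to retained introns. Those at 200 fragments or more had a median of -0.027, and 14 of 5881 (0.238%) were below -1 and 2 (0.034%) above 1. Over all non-canonical transcripts of that depth the median was -0.0033, with 0.115% below -1 and 0.028% above 1.

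The level of a retained-intron transcript relative to its canonical transcript had a median of 0.590 untreated and 0.567 under AS. The number above their canonical transcript was 2661 (14.98%) untreated and 2400 (13.5%) under AS. The difference grew as that level declined. For this, the level was the sum of both columns relative to the same sum of the canonical transcript. Above 1, the median difference was -0.017 (2447 transcripts), and between 0.3 and 1 it was -0.041 (11452). Between 0.1 and 0.3 it was -0.14 (3223), and below 0.1 it was -0.28 (646). As the values of both columns enter the level and the difference, and low levels have few fragments, this pattern is a description. Across the transcripts, log2 ratios of retained intron and canonical transcript had a Pearson r of 0.513 over 17768 transcripts and 0.839 over the 5881 with at least 200 fragments. These points share libraries and fragments.

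**Figure D2:**
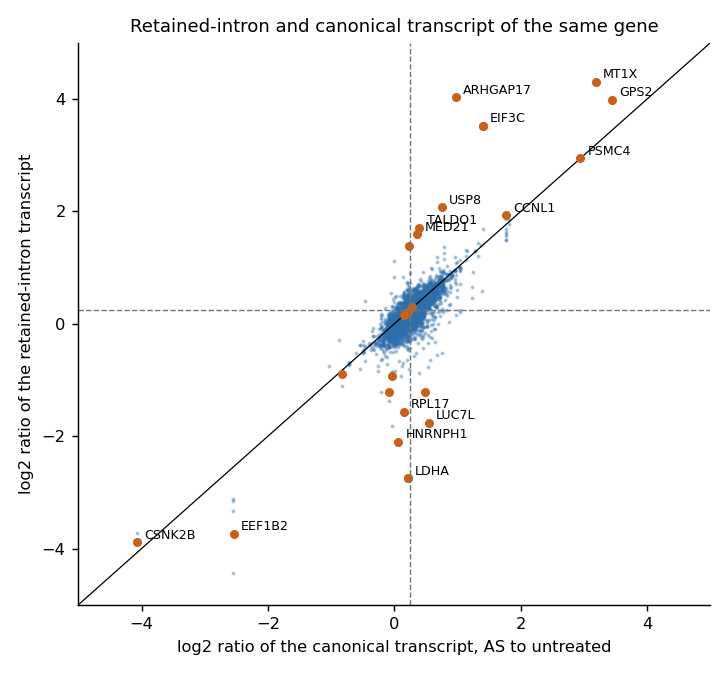
Log2 ratio (AS to untreated) of retained-intron transcripts with at least 200 fragments (blue) and of the named ones (orange, any fragment number) against that of the canonical transcript, with the diagonal and, dashed, the median shift of the table. Most points lie along the diagonal, with an r of 0.839 over 5881 transcripts, and CSNK2B and EEF1B2 lie far down on both axes.

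Of the transcripts called higher that had a canonical transcript, 188 (17.7%) had a canonical transcript that was also higher, 0 had one that was lower and 873 had one that was not called. Of those called lower, 26 (5.18%) had a lower canonical transcript, 2 a higher one and 474 one that was not called. Few canonical transcripts were called at all: of the retained-intron transcripts not called, 0.599% had a higher canonical transcript and 0.0123% a lower one. Where the canonical transcript was called higher, the 287 retained-intron transcripts had a median log2 ratio of 1.14, beside 1.17 for the canonical ones. Over 1144 genes with 5 or more retained-intron transcripts, the median SD of the log2 ratio within a gene was 0.304. The pooled SD over all retained-intron transcripts was 0.601. As transcripts of a gene share counted fragments, a smaller spread within a gene is built in, and the comparison was not matched for depth. Among 274 genes with 5 or more of at least 200 fragments, the median SD was 0.091.

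The largest ratio among transcripts above 10 in at least 1 column and above 0 in both was in MT1X, a metallothionein gene, and CCNL1 and PCF11, of RNA processing, were among the 8 largest. The MT1X transcript (ENST00000568370.1, chr16:56682470-56684196), a single-exon transcript that spans both introns of this gene for a metal-binding protein, was at 0.915 untreated and 19.97 under AS. It had 21 and 389 fragments, a ratio of 21.8 (95% interval 14.1 to 35.7, Clopper-Pearson, which here and below covers counting error only). The canonical MT1X transcript was at 2.61 and 24.6. Metallothionein genes are close copies, and their reads can be exchanged.

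CCNL1 encodes cyclin L1, a partner of the kinases that act in splicing. Its most changed retained-intron transcript (ENST00000476744.5, chr3:157148121-157149945) was at 5.34 untreated and 20.6 under AS, with 73 and 239 fragments and a ratio of 3.86 (2.96 to 5.08). The canonical CCNL1 transcript was at 7.91 and 27.1, and 11 of 16 retained-intron transcripts of CCNL1 were above the ratio of 2, with a median log2 ratio of 1.49. The PCF11 transcript, of a gene for a 3′-end processing factor, was at 2.82 and 10.6, with 39 and 124 fragments and no canonical transcript in the comparison. All of these transcripts were higher under AS, and the canonical transcripts of MT1X and CCNL1 were higher too. In the poly-A libraries of the same series, prepared and normalised separately, gene values in cells with control siRNA and in lysate of AS-treated cells were 67.3 and 231 TPM for MT1X, 19.4 and 35.6 TPM for CCNL1, and 9.92 and 4.87 TPM for PCF11, so that of PCF11 was not higher in the lysate. The lysate had been cleared by centrifugation and the siRNA cells transfected, so here and below these libraries differ in more than AS.

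GPS2, which encodes a subunit of a nuclear corepressor complex, had 9 of 9 retained-intron transcripts above 2, with log2 ratios of 3.06 to 3.99. The most changed was at 0.547 and 10.2 (4 and 63 fragments), and the canonical GPS2 transcript was at 0.704 and 8.59. The PSMC4 transcript, of a proteasome ATPase gene, was at 1.72 and 13.9 (35 and 240 fragments), and its canonical transcript at 1.501 and 12.2. In both genes the canonical transcript was higher too, and 2 of 3 PSMC4 retained-intron transcripts were above 2. The poly-A libraries gave 122 TPM (control siRNA) and 70.4 TPM (lysate under AS) for GPS2 and 153 and 144 TPM for PSMC4, neither of them higher in the lysate. The ARHGAP17 transcript, of a GTPase-activating protein gene, was at 0.659 and 12.3 with 5 and 79 fragments. The other ARHGAP17 transcripts spread widely, from a log2 ratio of -2.25 to 4.04. Its gene value in the poly-A libraries was 24.6 and 13.5 TPM. The H19 transcript, of an imprinted lncRNA gene that holds the miRNA gene MIR675 in an exon, was at 10.8 and 74.0. The EIF3C transcript, of a translation initiation factor gene, was at 1.23 and 15.3. EIF3C has a near-identical copy, EIF3CL, whose canonical transcript was at 13.2 untreated and 5.75 under AS. The canonical values of EIF3C and EIF3CL summed to 15.8 and 12.8, a ratio of 0.811, so the direction for EIF3C alone is uncertain. Its poly-A values were 423 and 395 TPM.

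Among the smallest ratios by the same rule were those of CSNK2B and EEF1B2. The EEF1B2 transcript, of an elongation factor gene, was at 21.9 and 1.56, beside 29.9 and 5.05 for the canonical one. The CSNK2B transcript, of the regulatory subunit of casein kinase 2, was at 10.9 and 0.643, beside 20.9 and 1.14. For both genes the canonical transcript was below a ratio of 0.5 too. In the poly-A libraries, the gene value of CSNK2B was 131 TPM in cells with control siRNA and 163 TPM in lysate of AS-treated cells. The corresponding values were 369 and 464 TPM for EEF1B2, neither of them lower in the lysate. Whether the counting of near copies or overlapping genes has a part in these values was not tested.

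The LDHA transcript, of the lactate dehydrogenase A gene, was at 13.7 and 1.96 (124 and 15 fragments), while the canonical one was at 8.96 and 10.4. The TBX3 transcript, of a transcription factor gene, was at 28.8 and 12.4, beside 49.3 and 46.3 for the canonical transcript. One of the 20 retained-intron transcripts of GAS5, a small nucleolar RNA host gene, was at 16.2 and 7.21. In LDHA the canonical transcript was not lower, and in TBX3 its ratio was 0.939. The SRRM2 transcript, of a large nuclear splicing protein gene, was at 12.5 and 6.53, beside 76.7 and 74.98. The KMT2D transcript, of a histone methyltransferase gene, was at 10.2 and 5.40, beside 10.2 and 5.72, and 3 of 7 KMT2D transcripts were below 0.5.

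**Figure D3:**
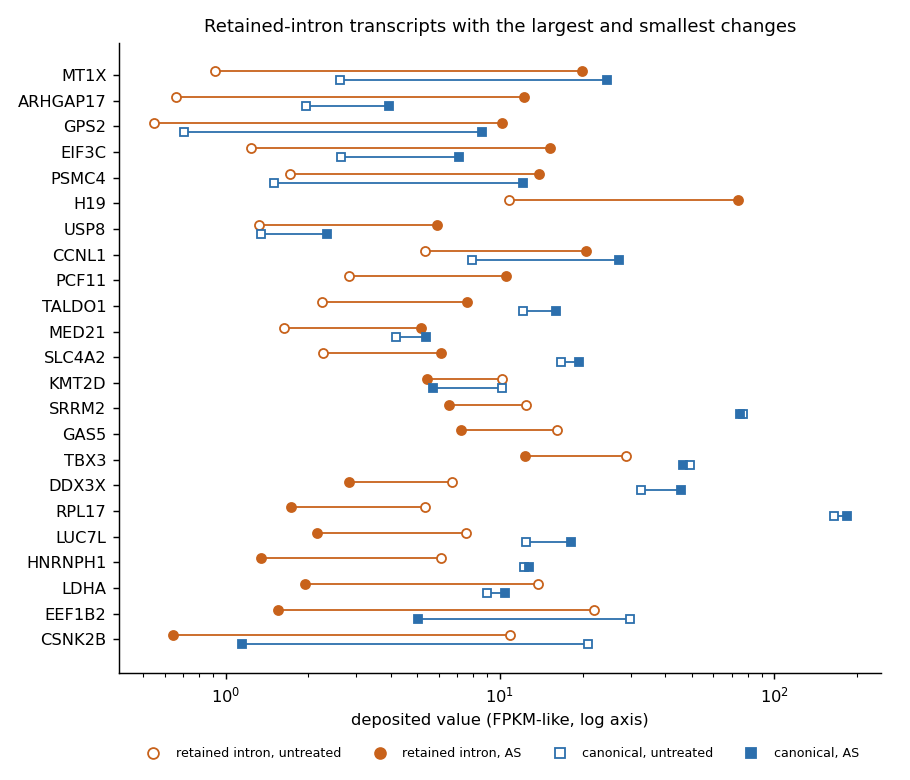
Values (FPKM-like, log axis) of the retained-intron transcripts with the largest and smallest ratios or differences (orange circles) and of their canonical transcripts (blue squares), untreated (open) and under AS (filled). MT1X and GPS2 lie on the right under AS in both transcripts, CSNK2B and EEF1B2 on the left in both, and LDHA on the left in the retained-intron transcript only.

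Retained-intron transcripts that moved apart from their canonical transcript were found in both directions. DDX3X encodes a DEAD-box RNA helicase of translation and SGs. Its retained-intron transcript ENST00000480592.6 (chrX:41334162-41339604) was at 6.68 untreated and 2.81 under AS, with 207 and 74 fragments and a ratio of 0.421 (0.318 to 0.552). The canonical DDX3X transcript was at 32.7 and 45.8, so the difference of log2 ratios was -1.70. It was the only 1 of 28 retained-intron transcripts of DDX3X below 0.5, and the median over the 28 was 0.46. The LUC7L transcript, of a U1 snRNP-associated protein gene, was at 7.52 and 2.15 (95 and 23 fragments), beside 12.4 and 18.2 for the canonical one. The HNRNPH1 transcript, of an hnRNP gene, was at 6.10 and 1.35 (48 and 9 fragments), beside 12.2 and 12.7. These were among the smallest differences by the naming rule, together with those of RPL17 and LDHA.

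The RPL17 transcript, which holds the small nucleolar RNA gene SNORD58A in an exon, was at 5.35 and 1.73, beside 165 and 183 for the canonical one. In the other direction, the USP8 transcript, of a deubiquitinase gene, was at 1.33 and 5.89 (13 and 49 fragments), beside 1.35 and 2.34. The TALDO1 transcript, of a pentose phosphate pathway enzyme, was at 2.24 and 7.58, beside 12.2 and 16.04. The MED21 transcript, of a Mediator subunit gene, was at 1.64 and 5.14, beside 4.17 and 5.38, and the SLC4A2 transcript, of an anion exchanger gene, was at 2.27 and 6.11, beside 16.6 and 19.4. These 4 rested on 9 to 15 untreated fragments, so their counting intervals were wide.

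Some transcripts were listed at 0 in a column. For UQCRC2 the values were 0 and 5.11 (0 and 18 fragments), for NAP1L4 0 and 4.92 (0 and 38) and for DAXX 0 and 3.45 (0 and 18), with canonical values of 0.157 and 2.73, 2.05 and 5.76, and 0.059 and 0.693. In the other direction, LPCAT1 was at 3.03 and 0 (22 and 0 fragments), COPS3 at 2.87 and 0 (11 and 0) and TNK2 at 1.94 and 0 (19 and 0), with canonical values of 2.25 and 0.966, 14.1 and 18.2, and 3.60 and 3.25. In total 25 were listed at 0 untreated and 20 under AS.

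Gene groups were described by the numbers of retained-intron transcripts on each side, to be read against 6.84% of all transcripts above 2 and 2.01% below 0.5, against 6.18% and 2.93% of all retained-intron transcripts, and against 60.5% of the latter below the change of their canonical transcript. Transcripts of a gene share fragments, so a single gene can give most of a group's count. Transcripts above 1 in only 1 column entered through the column where they were higher. Shares without them were not computed for the groups. Among splicing factor kinases, which phosphorylate SR proteins, 4 of 31 transcripts (12.9%) were above 2 and 0 below 0.5, and 21 (67.7%) were below the change of their canonical transcript. Their median log2 ratio was 0.31 and that of their canonical transcripts 0.62. CLK1, a CDC2-like kinase known for detained introns, had a canonical transcript at 6.64 untreated and 15.7 under AS. Over the 8 CLK1 retained-intron transcripts the median log2 ratio was 0.27, the median difference -0.96, and 6 lay below the canonical change. Their log2 ratios ran from -0.88 to 1.85, and 2 of the 8 were above a ratio of 2. The CLK1 transcript ENST00000473565.5, which holds 2 canonical introns, was at 7.95 and 12.6. The 5 CLK4 transcripts had a median of 0.33, and their canonical transcript 0.62. In the detained-intron genes taken from the literature, 16 of 157 (10.2%) were above 2 and 4 (2.55%) below 0.5, with a median log2 ratio of 0.31, a canonical median of 0.49 and 107 of 148 (72.3%) below the canonical change. CCNL1 gave 11 of these 16, and without it 5 of 141 (3.55%) were above 2, fewer than in the background, and 70.5% were below the canonical change. In DDX5, an RNA helicase gene of splicing, 15 of 16 transcripts were below the change of the canonical transcript, which was at 66.3 and 95.4. The DDX17 transcript, of a related helicase gene, was at 23.5 and 22.7, beside 30.9 and 37.0.

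SR proteins and hnRNPs, which bind exons and introns to guide splicing, had 6 of 120 transcripts (5.00%) above 2 and 6 (5.00%) below 0.5, with a median of 0.18. HNRNPH1 gave 4 of the 6 lower ones, and without it 2 of 108 (1.85%) were below 0.5. TRA2B, a splicing regulator gene, had 4 of 8 above 2 and a median of 1.02, beside 0.79 for its canonical transcript (23.3 untreated, 40.5 under AS). The SRSF2 transcript was at 96.2 and 139, beside 84.2 and 122. The HNRNPC transcript was at 126 and 148, and that of HNRNPA2B1 at 120 and 134. Spliceosome components had 12 of 234 (5.13%) above 2 and 7 (2.99%) below 0.5 (median 0.23), and nuclear export and surveillance genes 3 of 83 (3.61%) and 6 (7.23%), with a median of 0.16. In the latter group 61 of 81 transcripts (75.3%) were below the canonical change, with a median difference of -0.18. The THOC5 transcript, of an mRNA export complex gene, was at 20.1 and 16.3, beside 17.5 and 18.3. The NXF1 transcript, of the main mRNA export receptor, was at 8.96 and 10.4, beside 12.2 and 18.1.

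Stress-response genes were counted in the same way. In genes of the integrated stress and p53 response, 10 of 33 (30.3%) were above 2 and 0 below 0.5, with a median log2 ratio of 0.56, and the median difference from the canonical transcript was -0.0097. HERPUD1, an endoplasmic reticulum stress gene, gave 5 of these 10, all of its 5 transcripts, with a median log2 ratio of 1.13 and a canonical transcript at 2.98 and 6.62. Among immediate-early genes 6 of 22 (27.3%) were above 2 and 1 (4.55%) below 0.5. These 22 transcripts came from 5 of the 43 genes listed. MCL1, an anti-apoptotic gene, had 2 of 2 above 2, one of them at 19.1 and 47.0, beside 21.2 and 51.6 for the canonical transcript. The FOSB transcripts, of an AP-1 transcription factor gene, were at 0.034 and 2.52 and at 0 and 3.35, beside a canonical transcript at 0.060 and 5.61. These FOSB transcripts passed the minimum value only through the AS column, so their ratios above 2 are tied to that filter. NRF2 and metal response genes had 4 of 31 (12.9%) above 2 and 0 below 0.5, and heat shock and ubiquitin genes 4 of 82 (4.88%) and 0, with the heat shock group having a median of 0.33. The HSPA8 transcript, of a constitutive chaperone gene, was at 301 and 421 (372 and 519 for the canonical one).

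Translation genes had medians of 0.15 to 0.27, beside 0.20 over all retained-intron transcripts. Cytosolic ribosomal protein genes had 2 of 227 (0.881%) above 2 and 8 (3.52%) below 0.5 (median 0.15), translation factors 3 of 169 (1.78%) and 4 (2.37%) (median 0.21), and aminoacyl-tRNA synthetases 2 of 137 (1.46%) and 0 (median 0.25). Small nucleolar RNA host genes had 6 of 144 (4.17%) and 2 (1.39%), with a median of 0.27.

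The sequence held by these transcripts was annotated from the canonical transcript. A whole canonical intron of at least 50 nt lay inside the exons of 6250 retained-intron transcripts, of which 4345 held 1 and 1905 held 2 or more, up to 14. Another 11630 covered only part of a canonical intron and 335 covered none. Held introns were short and GC-rich: the 5907 held introns had a median length of 281 nt and a median GC content of 54.1%, beside 1008 nt and 47.0% for the 29202 introns of the same genes that no retained-intron transcript above 1 held. Under 500 nt were 67.4% and 34.4%. Splice sites of held introns scored lower, with median scores of 7.72 and 8.24 at the 5′ site and 8.26 and 9.12 at the 3′ site (log2 odds from all canonical introns). The minor-spliceosome 5′ sites GTATCC or ATATCC were present in 60 held introns (1.02%) and 142 not held (0.486%). These features describe the annotation of transcripts above 1, not a response to AS.

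Within the holders of whole introns, the difference from the canonical transcript grew with the length and the share of held intron, but not with the number of introns held. Medians were -0.029 for holders of 1 intron (4298 transcripts), -0.031 for 2 (1174) and -0.030 for 3 or more (690). Transcripts that held no whole intron were further below 0, with a median of -0.061 (11606), than the holders, with -0.030 (6162). In the shortest quartile of held length (56 to 163 nt) the median difference was -0.0073, and in the longest (1035 to 8494 nt) -0.059. By the share of the transcript that was held intron, medians were -0.0086, -0.027, -0.037 and -0.066 from the lowest to the highest quartile. Holders of the first intron had a median of -0.0028 (473 transcripts), and the others -0.032 (5689). Splice-site scores did not order the differences, with Pearson r of 0.0047 for 5′ and -0.020 for 3′ sites over 6162 transcripts of the same libraries. Held intron length had an r of -0.081 and GC content 0.077.

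**Figure D4:**
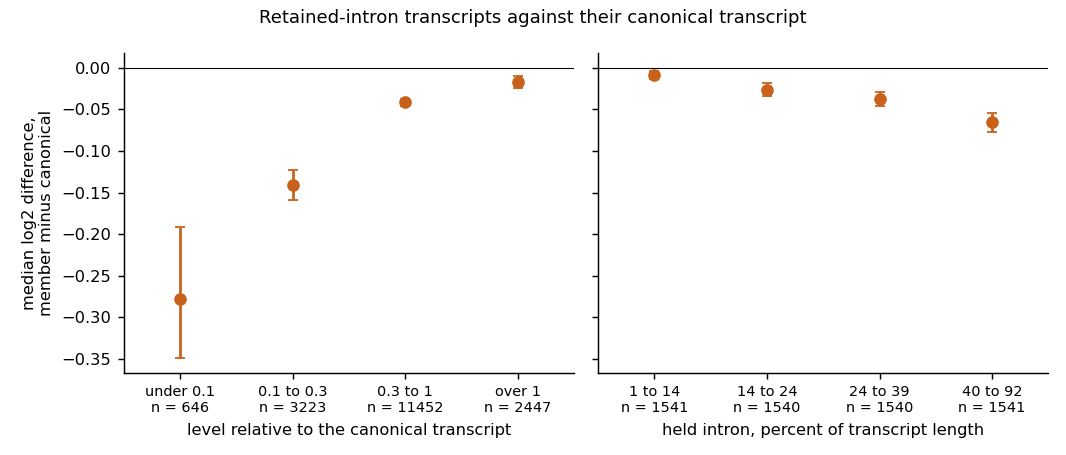
Median difference of log2 ratios (retained intron minus canonical) with 95% rank intervals, by level relative to the canonical transcript (left) and by the percent of the transcript that is held intron (right). Medians lie between -0.017 and -0.28 on the left and between -0.0086 and -0.066 on the right, further below 0 for low levels and for large held shares.

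The measure closest to retention subtracted, for 508 retained-intron transcripts, the fragments of a nested transcript from those of the transcript that holds the intron. The nested transcript lacks the intron or introns and can also differ at its outer ends. As total RNA was sequenced, introns not yet spliced were not told apart from retained ones. The remaining fragments touch the intron or lie where the outer ends of the transcripts differ. None of these 508 differences was negative. After leaving out introns that overlap an exon of a canonical or protein-coding transcript of the gene, 158 intron sets with at least 20 fragments remained, in 123 genes, with a median length of 845.5 nt. The introns printed above are among them. The outer ends were the same in 47 of the 158 sets, and over all of them they differed by a median of 17 nt and by up to 447 nt. A partner lacks the introns of the set but need not be fully spliced: 64 partners were themselves of the retained_intron type, 43 protein-coding, 40 of nonsense-mediated decay, 7 without a defined coding sequence and 4 lncRNAs. Over the 158 sets, fragments summed to 8497 untreated and 7291 under AS, which after scaling to library size is a ratio of 1.01. The partners summed to 139260 and 137465, a ratio of 1.16.

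The median log2 ratio of intron fragments was -0.050 (95% rank interval -0.23 to 0.12), and that of the partners 0.24. The median difference was -0.33 (-0.51 to -0.20), and 110 of 158 sets (69.6%) were below their partner. It was -0.69 (-0.80 to -0.28) in the 47 sets with the same ends and -0.63 (-0.94 to -0.25) in the 53 of genes that overlap no other. With every intron set, also inside exons, it was -0.13 (-0.20 to -0.077, 364 sets), and there the median log2 ratio of intron fragments was 0.14 instead of below 0. The median intron level relative to the partner was 25.6% untreated and 21.8% under AS, a ratio of length-scaled values and not a retained share. Among the 31 sets with at least 100 fragments, the median difference was -0.22 and 23 were below. Above a ratio of 2 were 16 sets (10.1%) and below 0.5 were 21 (13.3%), whereas 4.88% and 1.04% of all transcripts with at least 20 fragments were. As 128 of the sets had 20 to 100 fragments, where 10.7% of all transcripts were above 2 and 2.51% below 0.5, the 15 higher and 20 lower sets of that depth are better read against those shares, with the higher near the background and the lower above it. Of the partners, 5 were above 2 and 0 below 0.5.

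Intron sets with fewer fragments under AS, and those with more that follow, were named after their values were seen. In SGK1, a stress-regulated kinase gene, a set of 9 introns had 147 untreated and 32 AS fragments, a ratio of 0.256 (0.169 to 0.378), while the partner had 470 and 459. The level of the introns relative to the partner was 25.3% and 5.64%. The C1orf174 intron had 67 and 18 fragments, a ratio of 0.317 (0.177 to 0.539), and its partner 96 and 146. The UBE2T intron, of a ubiquitin-conjugating enzyme gene of DNA repair, had 27 and 7, beside 327 and 373. The DDX5 intron had 308 and 211, a ratio of 0.807 (0.674 to 0.965), beside 3241 and 3965 in its partner, and its level relative to the partner was 134% and 75.2%. A small RNA gene lies in an exon of the DDX5 transcript that holds it. In SNHG1, a small nucleolar RNA host gene, a set of 2 introns had 107 and 52 fragments, beside 384 and 455.

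More fragments under AS were counted in other introns. The DNAJB11 intron, of an endoplasmic reticulum co-chaperone gene, had 33 untreated and 65 AS fragments, a ratio of 2.32 (1.504 to 3.64), beside 177 and 201 in its partner. The MT2A intron, of a metallothionein gene, had 0 and 20 fragments, beside 21 and 68, so it was listed at 0 untreated and its transcripts as a whole were higher. In NOP56, a snoRNP protein gene, a set of 4 introns had 134 and 203 fragments, a ratio of 1.78 (1.43 to 2.24), beside 281 and 309. The CTSA intron, of a lysosomal protease gene, had 6 and 21, beside 262 and 306. The intron with the most fragments, that of HMGN1, a nucleosome-binding protein gene, had 436 and 366, a ratio of 0.989 (0.858 to 1.14), and its partner 898 and 868. For HMGN1 the interval of the ratio held 1, and the partner's ratio of 1.14 lay at its upper bound. Higher and lower introns thus both occurred, with 45 sets whose counting interval lay below the median ratio of all transcripts and 12 above it.

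**Figure D5:**
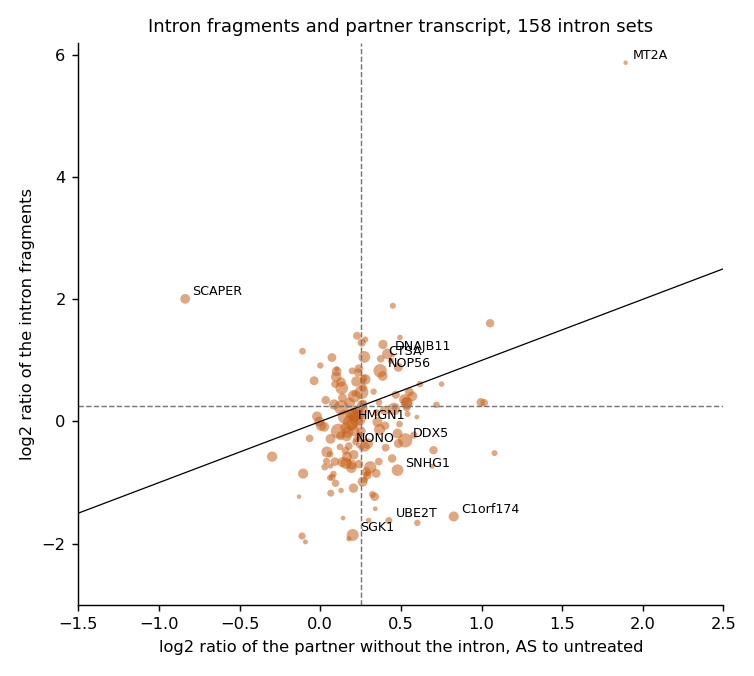
Log2 ratio (AS to untreated) of intron fragments against that of the partner without the intron for 158 intron sets, each point sized by its fragment number, with the diagonal and dashed lines at the median shift of the table. Of these sets, 110 lie below the diagonal, among them SGK1 and C1orf174, while DNAJB11, NOP56 and MT2A (listed at 0 untreated and placed by the added 0.1) lie above.

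The host genes were set beside the SG cores, the G3BP1-bound granules purified from AS-treated cells and sequenced as poly-A RNA with 1 library. Here a gene counted as SG-enriched when its TPM in SG was above 1 and its TPM plus 1 was over 2 times that in Total, the lysate. Among the 5701 genes with a retained-intron transcript and at least 1 TPM in SG or Total, 58.9% were SG-enriched, compared with 61.7% of 11158 protein-coding genes with a transcript above 1. The share was 62.5% for the 872 host genes of higher and 62.2% for the 442 host genes of lower retained-intron transcripts. As these libraries measure genes by poly-A RNA, they do not say which transcript was in the granules. Host genes of retained-intron transcripts had a median log2 ratio of SG to Total (TPM plus 1) of 1.47, beside 1.58 for all.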

How the data were processed

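Reads had been trimmed by the authors (fastp) and mapped to GRCh38.p13 (HISAT2 2.1.0 and hg38 in the submitters' processing notes). For TPM the paper names StringTie and GENCODE release 41. Whether the deposited rRNA-depleted columns came from that step is unclear, as they do not behave as TPM. The values the authors deposited for the rRNA-depleted libraries are headed TPM but were treated as FPKM: the columns sum to 1039719 and 1216810, and multiplying by transcript length gave whole fragment numbers within 0.01 for 141239 of 141239 (untreated) and 143943 of 143944 (AS) values above 0. Whether counting used strand is not given in the sources used here. The authors also deposited TPM of protein-coding genes for siCtrl, Total and SG libraries. eCLIP values were not used here, and 0 columns were unmapped.

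Transcripts were matched by ID to GENCODE release 44 (91.1% of 256980). Ratios used a pseudocount of 0.1 on the log2 scale, thresholds of 2 and 0.5, and a minimum value of 1. With 1 library per condition no test was run. The ratio rules and intervals were tested on simulated data. A canonical intron counted as held from 50 nt. Intron fragments came from nested pairs with the same introns otherwise and ends that differed by at most 20% of intron length. Figures were drawn in matplotlib 3.10.9, and tables computed in Python 3.11.15 with pandas 2.3.3, scipy 1.17.1 and numpy 2.4.6.

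Named transcripts were, 1 per gene, the 8 largest and 8 smallest log2 ratios above 10 in at least 1 column, the 6 largest and 6 smallest differences from the canonical transcript above 5, the 5 highest means, 3 each way listed at 0, and list genes by mean value. The members and gene lists were chosen with earlier results of these data known. The intron-fragment measure, its filters, and the fragment minimums of 20, 50, 100 and 200 were chosen after the data were seen. Some transcripts and introns that meet the rules are not reported here.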

Additional observations from a re-analysis of the deposited data

How the results depend on the processing

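No paired analysis was possible because each condition has 1 library, which also left no replicate to leave out. Of 84 alternatives over 10 results, 37 stayed within the spread or within 1.5 times the count, 45 moved and 2 reversed. With a minimum value of 5, 2.03% of retained-intron transcripts were above 2 and 0.473% below 0.5, the median log2 ratio was 0.22, the median difference from the canonical transcript -0.022, and 0.150% and 0.492% differed from it by over 1 up and down. With values above 1 in both columns these were 2.40%, 0.728%, 0.19, 0.225% and 1.55%, the median difference hardly moving. With the AS column rescaled, 2.95% were above 2 and 5.11% below 0.5, and the median log2 ratio reversed to -0.045. With 1 transcript per gene, 1.75% were below 0.5, the median log2 ratio was 0.23, the median difference -0.027 and 1.99% differed downwards. Without genes that overlap others, the medians were 0.21 and -0.051. Thresholds of 4 and 0.25 left 1.11% and 0.823%, and a threshold of 2 on the difference 0.298% and 0.681%. A pseudocount of 1 gave medians of 0.16 and -0.052 and shares of 0.208% and 1.31%, and canonical transcripts above 5 a share of 1.08% upwards. With at least 20 fragments (added after the data were seen), 3.97% were above 2, 1.58% below 0.5, 0.708% differed upwards and 2.47% downwards.

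For intron fragments, all alternatives were added after the data were seen. With at least 50 fragments, 6.02% of sets were below 0.5. With the same ends in both transcripts, the median log2 ratio was -0.41 and the median difference from the partner -0.69. After rescaling, 5.70% were above 2, 21.5% below 0.5 and the median was -0.29. With introns that overlap exons included, 6.04% were above 2, 6.32% below 0.5, the median log2 ratio reversed to 0.14 and the median difference was -0.13, the added sets holding exon fragments by construction. Without genes that overlap others, 5.66% were above 2, 20.8% below 0.5, the median was -0.39 and the median difference -0.63. The median difference from the partner was below 0 in all of these settings. The median retained-intron transcript had 53 and 51 fragments, and calls were more frequent at low fragment numbers.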
